A study of Mus musculus with 8 samples.

Results

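The IL-17 target genes of keratinocytes studied here are 10 genes, Ccl20, Cxcl1, Cxcl2, Cxcl5, Nfkbiz, Zc3h12a, Cebpd, Steap4, Lcn2 and Saa3, out of 27179 genes in the count table. They were taken by symbol, and each symbol matched 1 row. Since earlier results of these data were known when they were chosen, counts over the members are descriptions. Total RNA depleted of ribosomal RNA was sequenced from epidermal cells of C57BL/6J mice, with 4 aged and 4 adult libraries, and the methods describe 1 mouse per library. The labels call the molecule polyA RNA, although the kit they name depletes ribosomal RNA. They give the aged mice an age of 73 weeks and the adult mice 17 to 25 weeks, and state for both groups a control IgG at 210 µg in 100 µl, injected into the peritoneum 3 times a week for 12 weeks. The methods describe these injections only for ageing mice that began at that age, and give aged mice a higher age than the label. They list adult and aged mice apart from the IgG-treated aged mice, and name the ribosomal depletion kit only for the former. Whether both groups, the aged mice alone or neither group received injections, and the final age of the aged mice, are therefore not settled. If only the aged mice were injected, injection and age cannot be told apart. The epidermis was taken from whole-torso skin with dispase, mice with visible skin inflammation were left out, mostly female mice were used, and some aged mice were retired breeders. The comparison asks whether genes that keratinocytes express under IL-17 differ with age in this tissue.

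Keratinocytes carry the receptor chains for IL-17A and IL-17F and are a main responder to these cytokines in skin. The adaptor Act1 passes the signal to NF-κB and to C/EBP factors, and it also prolongs the life of short-lived inflammatory messages. The response includes chemokines that call in neutrophils and Ccr6-bearing lymphocytes, nuclear cofactors and RNases that sustain or end it, and antimicrobial proteins. Many of the same genes also answer IL-1, TNF and cell stress, so their level is not specific to IL-17.

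The sequence before the start site is shown for the 4 genes in which a match to the NF-κB motif was found, since NF-κB drives many IL-17 targets. RefSeq (GRCm38.p6) gave windows of 300 bases, 250 before and 50 after the start, for 7 of the 10 genes. The motif was searched on both strands as GGG and TTCC with any 3 bases between them, and the capitals mark its matches.
Ccl20: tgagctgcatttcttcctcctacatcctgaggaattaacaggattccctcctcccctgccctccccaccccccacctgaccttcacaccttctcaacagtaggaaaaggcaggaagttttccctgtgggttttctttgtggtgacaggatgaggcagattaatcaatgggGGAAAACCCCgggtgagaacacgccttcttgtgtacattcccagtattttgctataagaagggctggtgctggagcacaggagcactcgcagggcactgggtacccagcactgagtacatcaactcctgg
Cxcl1: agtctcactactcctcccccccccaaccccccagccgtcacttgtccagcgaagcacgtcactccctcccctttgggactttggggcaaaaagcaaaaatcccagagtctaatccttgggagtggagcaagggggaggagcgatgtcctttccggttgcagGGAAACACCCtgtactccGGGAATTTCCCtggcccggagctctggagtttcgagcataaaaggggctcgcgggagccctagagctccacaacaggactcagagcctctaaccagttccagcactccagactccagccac
Cxcl2: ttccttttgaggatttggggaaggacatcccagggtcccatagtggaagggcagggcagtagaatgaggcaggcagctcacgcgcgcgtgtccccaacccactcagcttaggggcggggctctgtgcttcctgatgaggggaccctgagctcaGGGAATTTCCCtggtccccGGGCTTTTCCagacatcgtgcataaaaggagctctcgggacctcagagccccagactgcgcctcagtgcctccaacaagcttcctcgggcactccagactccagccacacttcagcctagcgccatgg
Steap4: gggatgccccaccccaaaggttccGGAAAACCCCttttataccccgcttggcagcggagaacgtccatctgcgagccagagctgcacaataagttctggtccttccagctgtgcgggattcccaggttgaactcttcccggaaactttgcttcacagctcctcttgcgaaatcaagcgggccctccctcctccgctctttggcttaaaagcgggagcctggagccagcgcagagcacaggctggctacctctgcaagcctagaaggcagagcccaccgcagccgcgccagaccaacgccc
These windows lie on the plus strand at chr1:83116516-83116815 for Ccl20, chr5:90890995-90891294 for Cxcl1, chr5:90903649-90903948 for Cxcl2 and chr5:7960222-7960521 for Steap4. Cxcl1 and Cxcl2 share GGGAATTTCC, beginning 71 and 97 bases before the start, which overlaps a match on the other strand. Cxcl1 had a further match 89 bases before the start and Cxcl2 a further one 78 bases before it. Ccl20 and Steap4 share GGAAAACCCC, a match on the other strand, at 80 and 226 bases before the start. Zc3h12a, Lcn2 and Saa3 had 0 matches in their windows. The Saa3 window, on the minus strand at chr7:46715627-46715926, lies inside the RefSeq span of the gene (46711998 to 46719615) and so belongs to a start site downstream of the end of that span. The motif was found in 4 of these 7 windows and in 5.56% of all 32851 promoter windows. The C/EBP motif, searched as TTNNGNAA on both strands, was found in Cxcl2, Zc3h12a, Steap4, Lcn2 and Saa3, against 40.7% of all windows. A match is a description of letters and not evidence of binding.

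Sequencing was deep, with 75027694 to 90140102 counts per library. Mitochondrial genes held 17.3% to 31.1% of the counts, most in adult replicate 4. Levels are given as counts per 1000000 counts (CPM) after trimmed-mean (TMM) scaling, with the SD over 4 libraries. Differences are log2 fold changes, aged over adult, each with a standard error (SE) from edgeR's quasi-likelihood test, with p-values adjusted over all 17702 tested genes. A gene was called at an adjusted p under 0.1 and a fold past the study's minimum. The 10 keratinocyte markers, such as Krt14 and Krt5, summed to 16871 to 22063 CPM in aged and 16822 to 18531 CPM in adult libraries. Adult replicates 3 and 4 stood apart from adult replicates 1 and 2 in many genes, so results are also given without them. In bulk tissue, fewer cells of a type and less RNA per cell cannot be told apart.

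No IL-17 target gene passed the test over all genes. Of the 9 tested members edgeR called 0, against 0.113% of all tested genes, of which 5 were higher (0.0282%) and 15 lower (0.0847%; 1 higher and 12 lower when scaled by library size alone). The median log2 fold change of the 9 was 0.47, with 8 above 0 and 1 below, against a median of 0.01 for all tested genes. Ccl20, Zc3h12a, Nfkbiz and Steap4 were higher in aged cells at an unadjusted p under 0.05, which is 4 of 9 members against 2.29% of all tested genes, and 0 members were lower, against 3.7%. The same 4 were higher at this level with DESeq2, against 2.94% of all tested genes, and with limma-voom, against 2.84%, while 3 of 9 (Ccl20, Zc3h12a and Steap4) were with the replicate number as a block, against 6.1%. Limma-voom called 0 members, against 0.096%. Saa3 was too low to test.

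**Figure D1:**
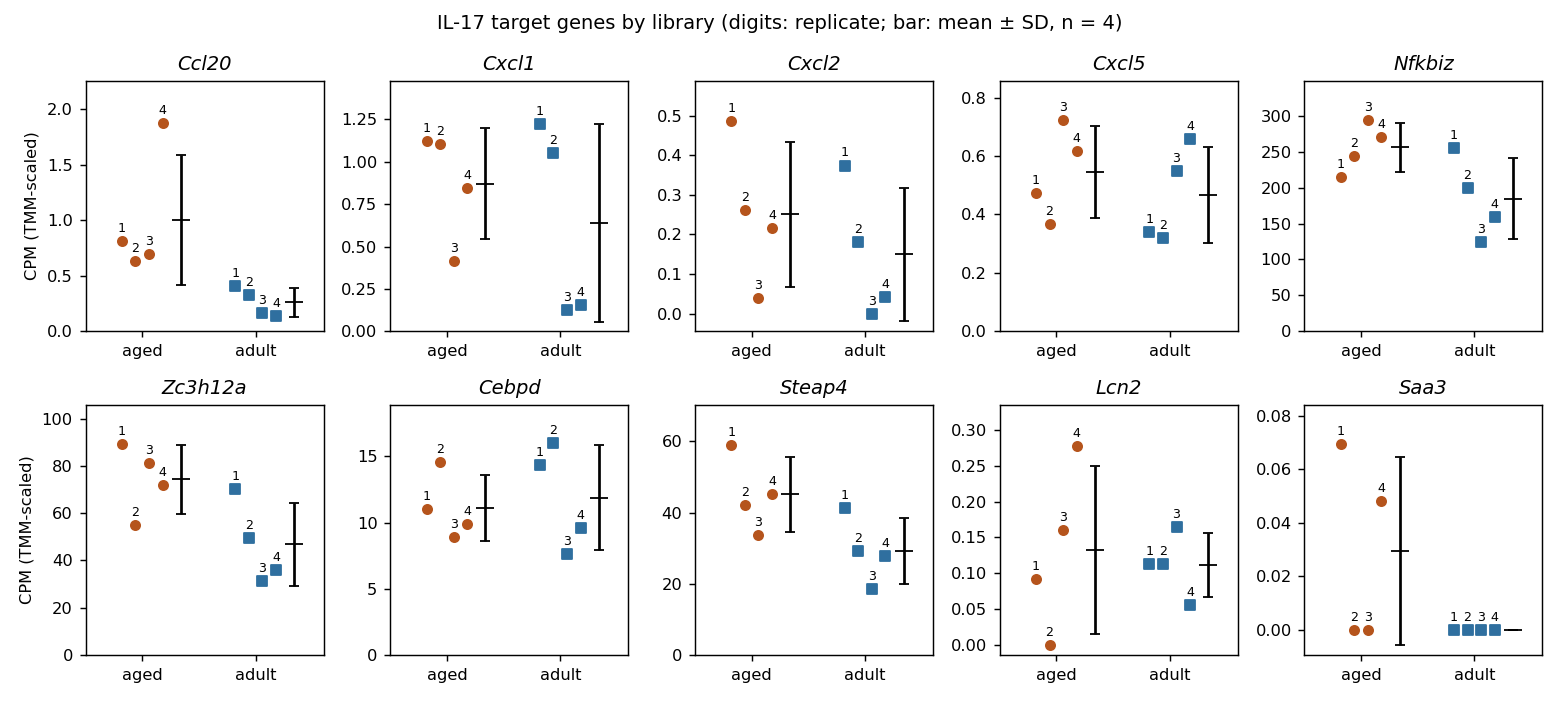
CPM of each of the 10 genes in the 4 aged (circles, left) and 4 adult (squares, right) libraries, with the replicate number above each point and the mean ± SD beside each group. The groups are separated in Ccl20, and adult replicates 3 and 4 lie below adult replicates 1 and 2 in 7 of the genes.

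Ccl20 had the largest log2 fold change of the tested members. It encodes the ligand of Ccr6, the receptor of IL-17-producing lymphocytes and of some dendritic cells, and lies on chromosome 1 (83116766 to 83119167, mm10). It had 0.81, 0.63, 0.70 and 1.87 CPM in aged replicates 1 to 4, against 0.41, 0.33, 0.16 and 0.14 CPM in adult replicates 1 to 4. All aged libraries were thus above all adult libraries, which holds for 1 of 9 tested members in this direction and for 1.71% of all tested genes, while 0 members were apart in the other direction, against 1.83%. Ccl20 averaged 1.002 ± 0.584 CPM in aged cells, against 0.26 ± 0.13 CPM in adult cells, a log2 fold change of 1.92 ± 0.48 with a 95% interval of 0.84 to 3.01 (edgeR adjusted p = 0.514). These levels rest on 337 counts in aged libraries and 87 in adult libraries. DESeq2 called Ccl20 (1.93 ± 0.51, adjusted p = 0.029), where it called 1.07% of all tested genes. In the 17 alternatives that tested it, the adjusted p ranged from 0.029 to nearly 1. Aged replicate 4 was far above the other aged libraries, and without it the difference was 1.44 ± 0.43 (edgeR adjusted p = 0.906).

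The neutrophil chemokines Cxcl5, Cxcl1 and Cxcl2 lie in this order on chromosome 5 (90759298 to 90905938), with 10777 bases between Cxcl1 and Cxcl2, and bind the receptor Cxcr2. Cxcl1 had 1.12, 1.10, 0.42 and 0.85 CPM in aged replicates 1 to 4, against 1.23, 1.05, 0.12 and 0.15 CPM in adult replicates 1 to 4. Adult replicates 1 and 2 were close to the 2 highest aged libraries, while adult replicates 3 and 4 were below every other library. The log2 fold change of Cxcl1 was 0.44 ± 0.70 (edgeR adjusted p = 0.928), with an interval of -1.14 to 2.01, and it was -0.38 ± 0.41 without adult replicates 3 and 4. The direction over all libraries thus rested on these adult libraries.

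Cxcl2 had 42, 25, 3 and 18 counts in aged replicates 1 to 4, against 33, 16, 0 and 3 counts in adult replicates 1 to 4. Replicate 3 was lowest and replicate 1 highest in each group, and the groups overlapped. Each aged library was above the adult library of the same number. The log2 fold change was 0.72 ± 0.94 over all libraries (edgeR adjusted p = 0.910) and -0.13 ± 0.75 without adult replicates 3 and 4. With the replicate number as a block it was 1.05 ± 0.54 (edgeR adjusted p = 0.462), and the pairing by number is uncertain.

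Cxcl5 had the opposite order among the libraries. It had 0.47, 0.37, 0.72 and 0.62 CPM in aged replicates 1 to 4, against 0.34, 0.32, 0.55 and 0.66 CPM in adult replicates 1 to 4. Replicates 3 and 4 were the higher ones in each group, where Cxcl1 and Cxcl2 were lower. The log2 fold change was 0.23 ± 0.35, with an interval of -0.55 to 1.01 (edgeR adjusted p = 0.924), and 0.72 ± 0.42 without adult replicates 3 and 4. Cxcl5 was the chemokine with the narrowest interval.

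The regulators come next. Nfkbiz, on chromosome 16 (55811375 to 55838954), encodes IκBζ, a nuclear cofactor of NF-κB that many IL-17 targets need. It had 215, 244, 295 and 271 CPM in aged replicates 1 to 4, against 256, 199, 125 and 159 CPM in adult replicates 1 to 4. Adult replicate 1 lay inside the aged range and the other adult libraries below it. The log2 fold change was 0.47 ± 0.21, with an interval of 0.0034 to 0.94 (edgeR adjusted p = 0.824), and 0.17 ± 0.17 without adult replicates 3 and 4.

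Zc3h12a, on chromosome 4 (125118414 to 125127881), encodes Regnase-1, an RNase that degrades inflammatory messages and limits the response to IL-17. It had 89.0, 55.1, 81.3 and 71.7 CPM in aged replicates 1 to 4, against 70.1, 49.6, 31.2 and 36.0 CPM in adult replicates 1 to 4. Adult replicate 1 overlapped the aged libraries and adult replicates 2 to 4 lay below all of them. The log2 fold change was 0.67 ± 0.25, with an interval of 0.10 to 1.23 (edgeR adjusted p = 0.775), and 0.31 ± 0.21 without adult replicates 3 and 4.

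Cebpd encodes C/EBPδ, which acts with NF-κB at IL-17 target promoters, and lies on chromosome 16 (15887286 to 15889545). It had 953, 1388, 666 and 817 counts in aged replicates 1 to 4, against 1264, 1413, 554 and 686 counts in adult replicates 1 to 4, or 11.1 ± 2.47 CPM in aged cells, against 11.9 ± 3.95 CPM in adult cells. Replicates 1 and 2 were above replicates 3 and 4 in each group. It was the 1 tested member below 0, at -0.10 ± 0.25 (edgeR adjusted p = 0.963), and it was at -0.45 ± 0.19 without adult replicates 3 and 4 (edgeR adjusted p close to 1). Of Cebpd 322 bases, 14.2% of the gene, overlap Spidr, and since the sources do not say whether strand entered the counting, reads there may be shared.

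**Figure D2:**
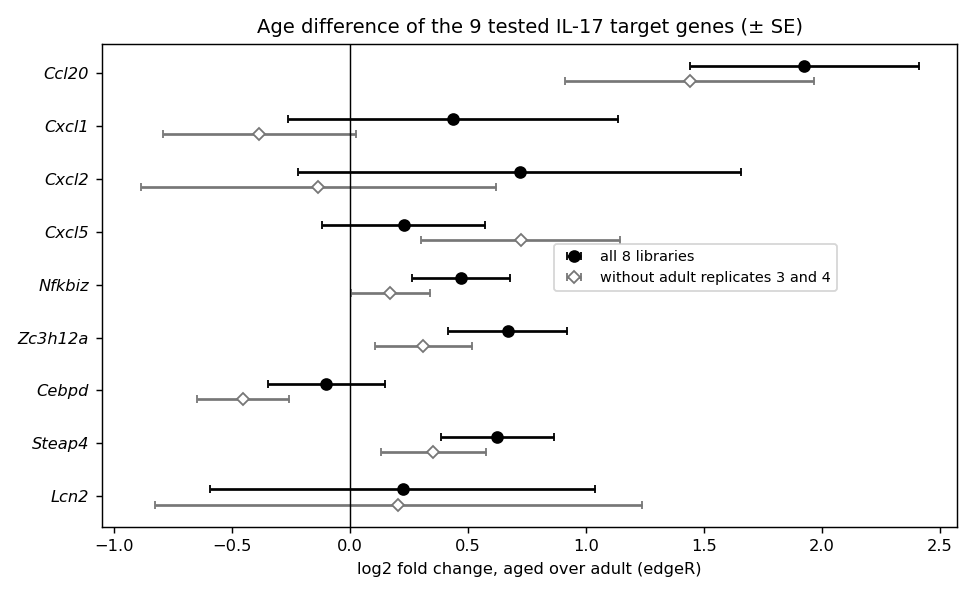
Log2 fold change of aged over adult (horizontal axis) for the 9 tested genes with the SE, from all 8 libraries (filled circles) and without adult replicates 3 and 4 (open diamonds). Ccl20 is farthest from 0 in both fits, at 1.92 and 1.44, while Cxcl1 and Cxcl2 change sign.

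The effector genes split into 1 well expressed and 2 scarcely detected. Steap4, on chromosome 5 (7960472 to 7982213), encodes a metalloreductase of iron and copper. It had 59.1, 42.1, 33.8 and 45.3 CPM in aged replicates 1 to 4, against 41.4, 29.2, 18.7 and 27.7 CPM in adult replicates 1 to 4. Each aged library was above the adult library of the same number, but the groups overlapped in adult replicate 1. The log2 fold change was 0.63 ± 0.24, with an interval of 0.09 to 1.16 (edgeR adjusted p = 0.781), and 0.35 ± 0.22 without adult replicates 3 and 4.

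Lcn2 on chromosome 2 (32384637 to 32387739) encodes lipocalin 2, which binds bacterial iron carriers, and Saa3 on chromosome 7 (46711998 to 46719615) encodes an acute-phase serum amyloid A protein. Both are strongly expressed in inflamed epidermis. Lcn2 had 8, 0, 12 and 23 counts in aged replicates 1 to 4, against 10, 10, 12 and 4 counts in adult replicates 1 to 4, and its log2 fold change was 0.22 ± 0.81 (edgeR adjusted p = 0.976). Saa3 had 6, 0, 0 and 4 counts in aged replicates 1 to 4, against 0 in all 4 adult libraries, where 0 counts allow a level of up to 0.0094 CPM over the group. The aged counts came from 2 libraries, and the groups overlapped at 0. The interval of Lcn2 was -1.61 to 2.05, and without aged replicate 2, the library at 0, the difference was 0.64 ± 0.51 (edgeR adjusted p = 0.909). Saa3 was not tested.

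Per length, Nfkbiz, Zc3h12a, Steap4 and Cebpd were above the chemokines in both groups. Per kilobase of transcript, in aged and adult cells, the means were 62.3 ± 8.33 and 44.9 ± 13.7 CPM for Nfkbiz, 27.0 ± 5.30 and 17.0 ± 6.33 CPM for Zc3h12a, and 14.3 ± 3.34 and 9.27 ± 2.96 CPM for Steap4. Cebpd followed at 4.91 ± 1.09 and 5.26 ± 1.75 CPM per kilobase. The chemokines lay lower, Ccl20 at 1.26 ± 0.74 and 0.33 ± 0.16, Cxcl1 at 0.91 ± 0.35 and 0.67 ± 0.61, Cxcl5 at 0.35 ± 0.10 and 0.30 ± 0.10 and Cxcl2 at 0.23 ± 0.17 and 0.13 ± 0.15 CPM per kilobase. In aged cells each of Nfkbiz, Zc3h12a, Steap4 and Cebpd did not overlap with the next gene in order, whereas from Ccl20 down to Saa3 each gene overlapped with the next. In adult cells Cxcl1 stood above Ccl20, with overlapping libraries, Zc3h12a overlapped with Steap4 and Steap4 with Cebpd.

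**Figure D3:**
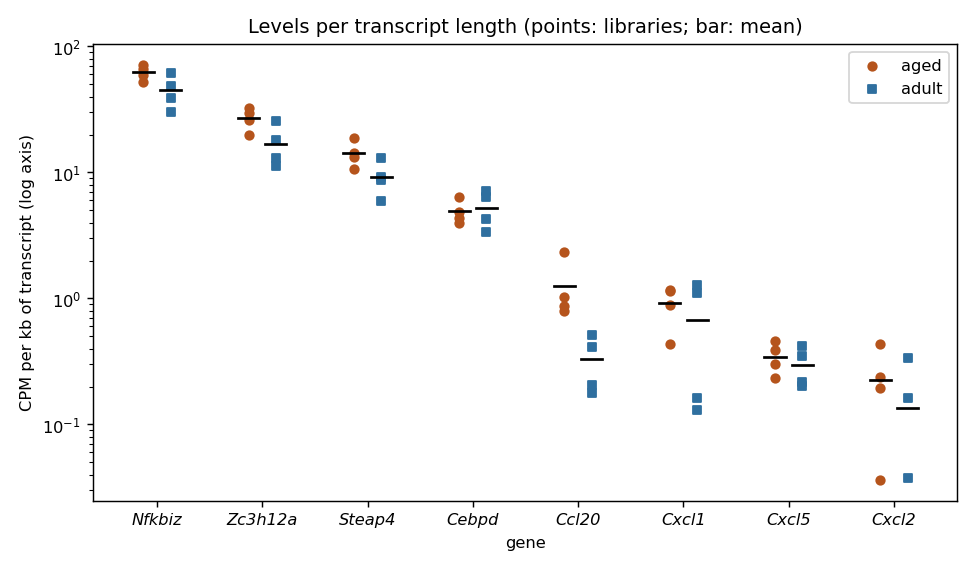
CPM per kilobase of transcript (logarithmic vertical axis) in each aged (circles) and adult (squares) library for the 8 most abundant genes, with the mean as a bar and a library at 0 left out. Nfkbiz averages 62.3 CPM per kilobase in aged cells and Cxcl2 0.23.

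Adult replicates 3 and 4 were low in most members. They lay below adult replicates 1 and 2 in 7 of the 9 tested members, all but Cxcl5 and Lcn2, as did 31.2% of all tested genes. In Ccl20, Cxcl1, Nfkbiz, Zc3h12a and Steap4 they lay below all 6 other libraries, 5 of 9 members against 17.1% of all tested genes. The mean of adult replicates 1 and 2 was 8.22 times that of 3 and 4 in Cxcl1 and 2.42 times in Ccl20. In Cxcl2 it was 13.2 times, resting on 33 and 16 counts against 0 and 3. In Zc3h12a, Cebpd, Nfkbiz and Steap4 it was 1.52 to 1.78 times.

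Leaving out adult replicates 3 and 4, which were low in most members, lowers most differences by construction. Aged replicates 3 and 4 were kept. With the 2 adult libraries that remained, 6 of the 9 members stayed above 0 and the median of the 9 was 0.21. Ccl20 was then the 1 member higher at an unadjusted p under 0.05, against 1.06% of all tested genes, and Cebpd the 1 lower, against 2.15%. Leaving out 1 aged library at a time, the number higher was 2 without replicate 1 (1.72% of all tested genes), 3 without replicate 2 (2.24%), 2 without replicate 3 (2.20%) and 3 without replicate 4 (1.69%). Leaving out 1 adult library, it was 4 without replicate 1 (6.04%), 2 without replicate 2 (2.96%), 1 without replicate 3 (1.30%) and 1 without replicate 4 (1.21%). Ccl20 was among them in each of these fits.

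The 12 immediate-early genes, such as Fos, Egr1 and Atf3, which respond within minutes to growth factors and tissue handling, were also low in these adult libraries. Their summed level was 9925, 8170, 7660 and 7069 CPM in aged replicates 1 to 4, against 9831, 7215, 2444 and 4100 CPM in adult replicates 1 to 4. All 12 were lower in adult replicates 3 and 4 than in 1 and 2, against 31.2% of all tested genes, and all 12 had a log2 fold change above 0 with a median of 0.42. None of them was called by edgeR, 0 passed an unadjusted p under 0.05, and the 3 with the lowest p were Ier2 (0.50 ± 0.27), Fosb (0.67 ± 0.37) and Fosl1 (1.46 ± 0.83). Their part in the values of the members was not tested.

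Markers of other cells varied between libraries too. The 12 Langerhans cell and macrophage markers summed to 194 to 368 CPM in aged and 168 to 353 CPM in adult libraries, with adult replicates 3 and 4 the lowest of all libraries at 168 and 173 CPM. Epcam, also a keratinocyte marker, made up 140 and 118 CPM of these 2 sums. Cd207 was at 25.7, 21.0, 0.86 and 2.94 CPM in adult replicates 1 to 4, and Cd74 at 125, 134, 12.1 and 26.5 CPM. Cd163 went the other way, at 1.72, 1.67, 5.28 and 4.63 CPM. Mrc1, C1qb and Epcam were likewise higher in adult replicates 3 and 4 than in 1 and 2. Of the 12 markers 7 were lower in adult replicates 3 and 4 than in 1 and 2, against 31.2% of all tested genes. The 11 T cell markers summed to 69.0 to 150.3 CPM in aged and 38.5 to 123 CPM in adult libraries, and all 11 were tested. Neutrophil identity genes were at or near 0, with Ly6g at 0 counts in all libraries and 6 of the 12 markers too low to test, and their sum of 46.0 to 77.8 CPM in aged and 40.0 to 69.6 CPM in adult libraries was mostly Cxcr2. The 9 measured hair shaft markers summed to 6.98 to 50.0 CPM in aged and 9.26 to 135 CPM in adult libraries, highest in adult replicate 4. The part of these cells in the members' values was not tested.

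**Figure D4:**
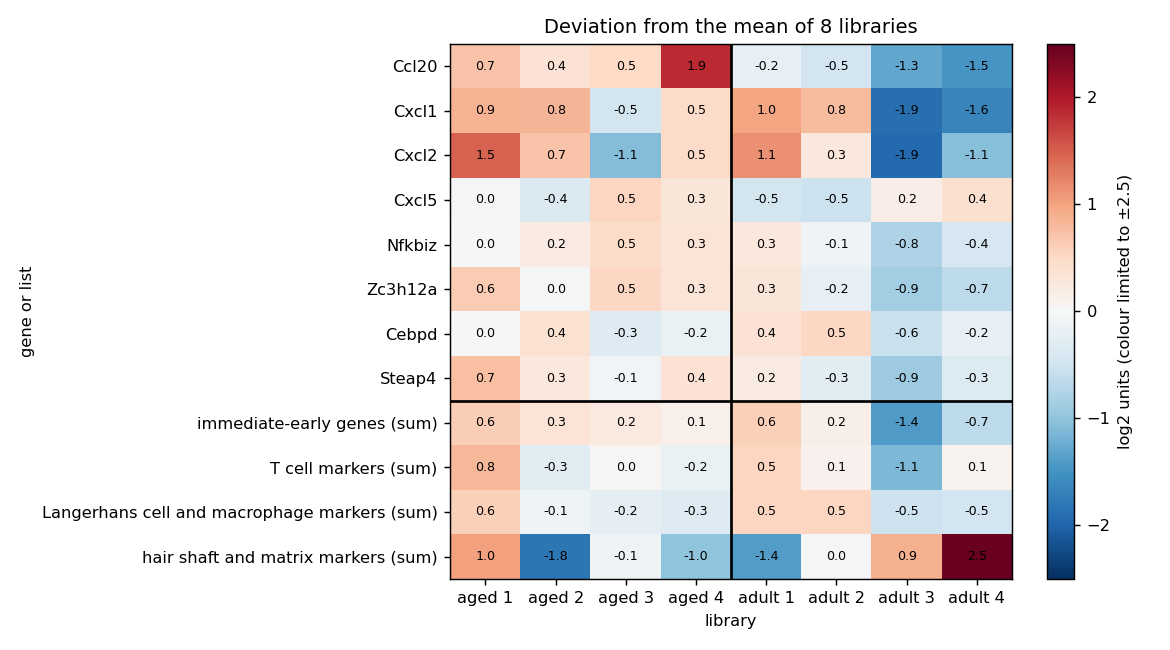
Deviation of each of 8 member genes, and of the summed level of 4 gene lists (below the line), from its mean over 8 libraries, in log2 units by colour and number, with aged libraries left of adult libraries. Adult replicates 3 and 4 are below the mean in Ccl20, Cxcl1, Cxcl2, Nfkbiz, Zc3h12a, Cebpd, Steap4, the immediate-early genes and the Langerhans cell and macrophage markers, and above it in Cxcl5 and the hair shaft markers. The Langerhans cell and macrophage sum includes Epcam, also a keratinocyte marker.

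The summed levels of the remaining sebocyte, fibroblast, endothelial and adipocyte markers overlapped between the groups. Sebocyte markers summed to 745 to 1344 CPM in aged and 882 to 1028 CPM in adult libraries. Fibroblast markers summed to 325 to 596 and 196 to 724 CPM, lowest in adult replicates 3 and 4, at 196 and 251 CPM. This sum was mostly Postn, at 173 and 197 CPM in those 2 libraries. Of the 10 fibroblast markers 2 were lower in adult replicates 3 and 4 than in 1 and 2, against 31.2% of all tested genes. Groups were apart in 1 of the 10, against 1.71% of all tested genes higher and 1.83% lower. This was Pdgfrb, named after its values were seen. It averaged 0.76 ± 0.37 CPM in aged cells, against 0.18 ± 0.11 CPM in adult cells (2.07 ± 0.58, edgeR adjusted p = 0.600). Endothelial markers summed to 0.30 to 3.80 and 1.49 to 2.80 CPM, and adipocyte markers to 0.17 to 2.003 and 0.33 to 4.16 CPM.

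Of 36 other genes that keratinocytes express under IL-17, 26 were tested and edgeR called 0, with 16 above 0 and a median of 0.16 (-0.10 without adult replicates 3 and 4). At an unadjusted p under 0.05, 2 were higher, against 2.29% of all genes, and 2 were lower, against 3.7%. The number higher was 0 without aged replicate 4 (1.69% of all tested genes), 0 without adult replicate 4 (1.21%, list median -0.04) and 4 with the replicate block (6.1%). The number lower was 2, 1 and 2 in these fits, where the share of all genes lower was not computed. Without adult replicates 3 and 4, 1 was higher (1.06% of all tested genes) and 3 were lower (2.15%). The 3 with the lowest p were Krt17, a stress keratin (-0.89 ± 0.25, edgeR adjusted p = 0.600), Krt16, a wound keratin (0.58 ± 0.21, adjusted p = 0.740), and Cebpb, which encodes C/EBPβ, the sister factor of C/EBPδ (-0.41 ± 0.16, adjusted p = 0.781). The antimicrobial genes S100a8 and S100a9 were at 0.83 CPM or less in every library. Mmp3, which encodes stromelysin and was named after its values were seen, was the 1 of the 26 tested whose groups were apart, against 1.71% of all tested genes higher and 1.83% lower, with 1.82 ± 0.47 CPM in aged cells, against 0.72 ± 0.52 CPM in adult cells (95% interval of the log2 fold change 0.17 to 2.47, edgeR adjusted p = 0.784).

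Of 34 ligands, receptors and signal carriers of the pathway, 29 were tested, 0 were called and 0 passed an unadjusted p under 0.05 in either direction, and their median was 0.03 with 19 above 0. Il17a and Il17f, the ligands, had 4 and 18 counts in the aged libraries together, against 6 and 5 in the adult libraries, and neither was tested. Il17f was higher in every aged library than in any adult library, at 0.027 to 0.072 CPM against 0 to 0.023 CPM, on these few counts. Of the 29 tested genes 0 had groups apart, against 1.71% of all tested genes higher and 1.83% lower. Il17ra, the shared receptor chain, averaged 29.3 ± 0.92 CPM in aged cells, against 29.8 ± 0.68 CPM in adult cells, with a log2 difference of -0.02 ± 0.07 and an interval of -0.18 to 0.14 (edgeR adjusted p = 0.968). Traf3ip2, the gene of Act1, differed by 0.04 ± 0.10 (adjusted p = 0.965), Il17rc by -0.19 ± 0.14 (adjusted p = 0.850) and Rela, the gene of p65, by 0.15 ± 0.14 (adjusted p = 0.884). The 3 with the lowest p were Tab2 (-0.21 ± 0.10), Il17rb (0.36 ± 0.23) and Il17rc.

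Of the receptors for the member proteins, 4 of 6 were tested and 0 were called or passed an unadjusted p under 0.05. Cxcr2, the receptor of Cxcl1, Cxcl2 and Cxcl5, had 57.1 ± 13.7 CPM in aged cells, against 55.0 ± 13.1 CPM in adult cells (0.05 ± 0.21, edgeR adjusted p = 0.979). Ccr6 had 81 counts in aged libraries and 95 in adult libraries (-0.30 ± 0.82, adjusted p = 0.966). Slc22a17, a receptor of lipocalin 2, differed by -0.07 ± 0.16.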

How the data were processed

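Transcripts were measured in epidermal cells of 4 aged and 4 adult mice, grouped by title and age label. The authors deposited raw read counts per Entrez gene without normalization, made by alignment to mm10 with STAR 2.5.2b and by featureCounts on its inbuilt annotation. Reads over several genes were counted for each, reads with several alignments were not counted, and duplicates were kept. Multimapping losses and unstated strand use can lower or mix the values of similar or overlapping genes.

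RefSeq (GRCm38.p6) named 25275 identifiers, GENCODE 18 more, and 1886 have no symbol. Promoter windows matched Ccl20, Cxcl1, Cxcl2, Zc3h12a, Steap4, Lcn2 and Saa3, and were not used for Cxcl5, Nfkbiz and Cebpd. Length was that of the longest GENCODE transcript with a RefSeq accession, or the RefSeq gene span where shorter.

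Counts were tested with edgeR 4.0.16 in R 4.3.3 (quasi-likelihood test, TMM scaling, edgeR's expression filter, Benjamini-Hochberg adjustment), without the study's batch, which the sources do not assign to samples. The biological coefficient of variation was 0.258. Totals of 75027694 to 90140102 counts leave counting error small except in Ccl20, Cxcl1, Cxcl2, Cxcl5, Lcn2 and Saa3, and floors cover counting error only. Replicates differed far beyond sampling noise (chi-square between 74.4 and 418 per degree of freedom). Alternatives were 3 scalings, mitochondrial genes left out, 2 filters, DESeq2 1.42.0, limma-voom (limma 3.58.1), the replicate block, each library left out and adult replicates 3 and 4 left out. The edgeR fits, with and without the block, were tested on simulated data.

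Both groups carry replicate numbers 1 to 4. Deviations from the group means, correlated over genes between libraries of the same number, gave 0.249 to 0.471, all over 0.1, so the numbers were taken as pairs from the data alone. Of 12 unlike pairs 3 were also over 0.1. The highest of them was aged replicate 4 with adult replicate 3, at 0.403. This was above aged with adult replicate 3, at 0.249, and aged with adult replicate 4, at 0.306. The pairing is therefore uncertain.

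The members and lists were chosen with earlier results of these data known. Genes named are all 10 members, the 3 genes of lowest p in each list that is not of cell type markers, and fixed pathway genes.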

Additional observations from a re-analysis of the deposited data

Results flagged for a closer look

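Ccl20 in aged replicate 4 stood at 1.87 CPM, where the next aged library was at 0.81 CPM, and the gap was 0.855 of the range of the 4 aged libraries, above Dixon's critical value. It was the 1 such case in 19 groups of 4 libraries examined over the 10 genes, and about 1 in 20 is flagged by chance.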

How the results depend on the processing

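The 18 alternatives left the count of called members at 0, except that DESeq2 called 1, Ccl20. The median over the members ranged from 0.21 to 0.84 and stayed above 0 in every alternative. Of all tested genes 20 were called, against 13 with library size alone, 190 with DESeq2, 3 with the replicate block, 10 without adult replicates 3 and 4, and 6 to 15 with 1 library left out. With the replicate block 0 members were called, and 3 of 9, without Nfkbiz, were higher at an unadjusted p under 0.05, against 6.1% of all tested genes. Without adult replicates 3 and 4 Cxcl1 was at -0.38 and Cxcl2 at -0.13. Lcn2 was at -0.73 with limma-voom, at -0.10 with the replicate block and at -0.44 to 0.64 with 1 library left out, and Cebpd at -0.27 to 0.075 with 1 library left out. The cause was not tested. Ccl20, Cxcl5, Nfkbiz, Zc3h12a and Steap4 kept their direction in every alternative that tested them. The filter of 1 CPM in 4 libraries gave no value for Ccl20, Cxcl2, Cxcl5 and Lcn2, nor leaving out mitochondrial genes for Lcn2. Saa3, with 10 counts in all, was too low to test.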

Other observations

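The 8 genes that respond to glucocorticoids, a class to which Cebpd also belongs, were at a median of 0.14 on the log2 scale, 6 of them above 0. None was called by edgeR and 0 passed an unadjusted p under 0.05. The 3 with the lowest p were Fkbp5 (0.47 ± 0.26), a feedback inhibitor of the receptor, Klf9 (0.35 ± 0.23), a transcription factor, and the kinase gene Sgk1 (-0.11 ± 0.11). Their summed level was lowest in adult replicate 3, at 679 CPM.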
